A study of Mus musculus with 6 samples.

Results

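The genes that encode the enzymes which prepare and crosslink collagen were compared between Col6a1+ and Col6a1- cancer-associated fibroblasts (CAFs) of mouse colonic adenomas. They were the 10 genes Lox, Loxl1, Loxl2, Loxl3, Loxl4, Plod1, Plod2, Plod3, P4ha1 and P4ha2, found by symbol among the 49548 genes of the deposited table, and all 10 were tested. All mice were of the C57/BL6 strain and carried both alleles Col6a1-cre and Rosa26-mTmG, and all of them went through the AOM/DSS protocol, in which the carcinogen azoxymethane and the irritant dextran sodium sulfate give colitis-associated tumors. In the mTmG reporter, Cre replaces membrane Tomato with GFP, so the GFP+ cells are those in which the Cre driven by Col6a1 has been active at some time (Col6a1+ CAFs), and the Tomato+ cells are the remainder (Col6a1- CAFs). Cells with the surface markers CD45, EpCAM, CD31 or Ter119 had been removed in the sort. Each group had 3 libraries of 3′ mRNA sequencing. According to the study's methods, each library came from pooled tumors, this Cre marks mainly PDGFRα-high fibroblasts and perivascular cells, and the Col6a1- sort holds several fibroblast types. The study describes 3 samples in total for the sequencing, each a pool of tumors of several mice. That count would match pools split into both sorts, which the study does not state outright. Nothing in the labels says that the replicates are separate cohorts, or whether same-numbered libraries of both sorts share a pool. The p-values therefore measure the spread between these pooled libraries, not between single mice. The ages of the mice are not given in the labels.

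Collagen is modified in steps, inside the cell and then outside it. In the endoplasmic reticulum, the collagen prolyl 4-hydroxylases, tetramers of alpha subunits encoded by P4ha genes with the beta subunit P4hb, hydroxylate prolines and thereby make the triple helix stable at body temperature. The lysyl hydroxylases, encoded by Plod1 to Plod3, hydroxylate lysines that later carry sugars or enter crosslinks. After secretion and removal of the propeptides, the copper-dependent lysyl oxidases, Lox and the LOX-like enzymes, oxidize lysines and hydroxylysines of collagen and lysines of elastin, and the resulting aldehydes form the covalent crosslinks that stiffen the matrix. Fibroblasts are the main source of these enzymes in the stroma of solid tumors.

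The values are normalized counts, that is, 3′ read counts per gene divided by the size factor of the library. The libraries summed to between 3039152 and 3425249 normalized counts, from an estimated 2568312 to 4519185 reads. Between 18770 and 20511 genes were detected in 5 libraries and 14530 in Col6a1+ replicate 1. Col6a1, whose promoter drives the Cre, stood at 1363 ± 544 normalized counts in Col6a1+ CAFs and at 202 ± 111 in Col6a1- CAFs (mean ± SD, n = 3), a log2 fold change of 2.82 ± 0.44 (SE; adjusted p = 0.00613, limma). With the replicate number as a block, limma gave Col6a1 an adjusted p of 0.0983 over all genes and 0.00557 over genes averaging at least 10. Over all genes without 1 library, its adjusted p was under 0.05 in 2 of 6 fits. Several marker lists differed between the sorts without overlap. The 8 pericyte markers, led by Rgs5 and Mcam, summed to 41577-90981 in Col6a1+ and 1147-2141 in Col6a1- libraries. The 6 smooth muscle markers, led by Acta2 and Tagln, summed to 12262-24902 and 467-2233, and the 8 pan-fibroblast markers, led by Col3a1 and Col1a1, to 43223-50365 and 8929-16277. Of the smooth muscle markers, Cnn1 overlapped between the groups, with 69, 57 and 31 in Col6a1+ and 69, 80 and 15 in Col6a1- libraries. The 6 trophocyte markers, led by Cd81 and Grem1, summed to 244-497 and 1125-1231, and the 8 epithelial markers, led by Cdh1 and Epcam, to 4950-5514 and 18135-27921 despite the exclusion of EpCAM+ cells. The epithelial sum was above the pan-fibroblast sum in every Col6a1- library, at 18135, 27921 and 21738 against 16277, 15653 and 8929. In every Col6a1+ library it was below the pan-fibroblast sum. The 6 immune markers, led by Cd74 and Itgam, were low, at 28-47 and 110-152. The endothelial and erythroid sums overlapped between the groups, at 195-368 and 189-447 for the 6 endothelial markers (led by Plvap and Kdr) and 110-1713 and 281-482 for the 5 erythroid markers (led by Hba-a2 and Hba-a1). The endothelial marker Tie1 had 220, 56 and 152 in Col6a1+ and 1, 7 and 21 in Col6a1- libraries. Each of the other endothelial markers had a lower mean in Col6a1+ CAFs. None of these lists held a marker at 0 in all 6 libraries. The part of these differences in the results below was not tested.

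All 10 crosslinking enzyme genes had a higher mean in Col6a1+ than in Col6a1- CAFs. In 8 of the 10, the lowest Col6a1+ value exceeded the highest Col6a1- value, a pattern found in 7.91% of all 26402 genes tested and in 14.2% of the 13515 genes whose mean reached 10 normalized counts. These 8 were 3 of the 5 lysyl oxidases (Loxl2, Loxl3 and Loxl4), all 3 lysyl hydroxylases and both prolyl 4-hydroxylase subunits. In limma on the log2 values, with Benjamini-Hochberg adjustment over all genes tested, 5 genes rose in Col6a1+ CAFs at an adjusted p under 0.05, namely Loxl2, Loxl3, Plod2, P4ha1 and P4ha2, and 0 fell. Of all genes tested, 4.62% were called in either direction and 2.66% were called higher. At an unadjusted p under 0.05 with a log2 fold change over 1, 7 of the 10 genes passed, against 6.09% of all genes tested. The median log2 fold change was 1.61 over the 10 genes and -0.27 over all genes tested. Over the 8 pan-fibroblast markers it was 1.93, above that of the 10 genes. In sorted bulk samples such as these, fewer cells of a type and less RNA per cell cannot be told apart.

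**Figure D1:**
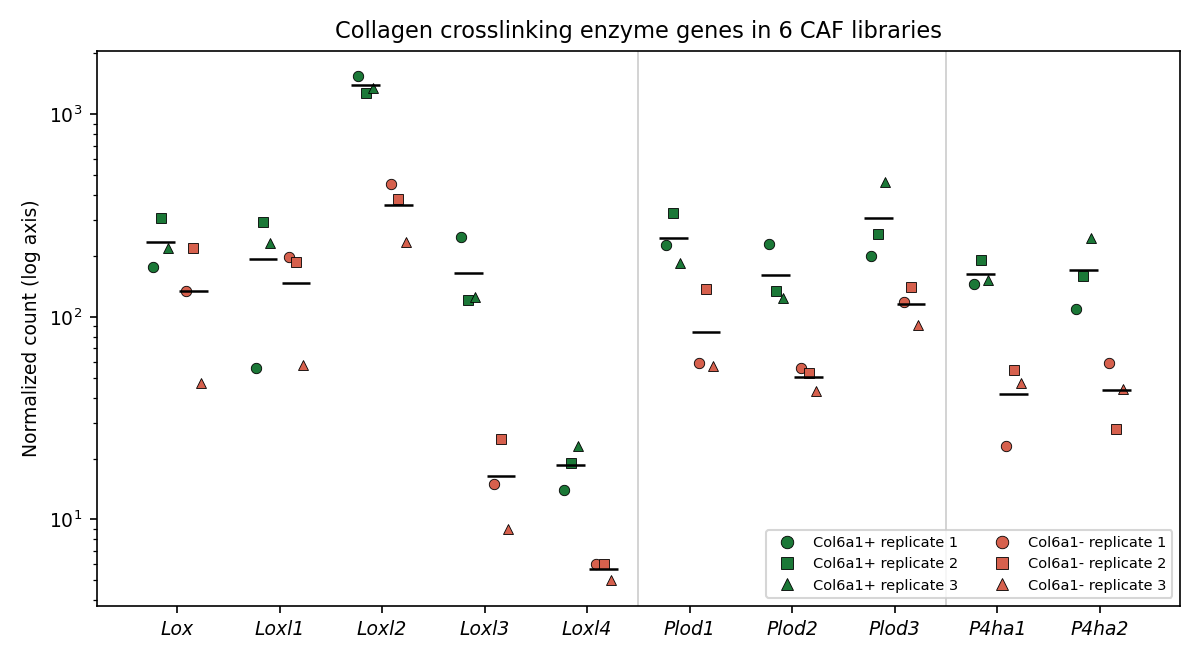
Normalized counts (log axis) of the 10 crosslinking enzyme genes in each library, Col6a1+ CAFs in green and Col6a1- CAFs in red, with the replicate given by the symbol and the mean of 3 libraries by the bar. The groups overlap for Lox and Loxl1 and are separate for the other 8 genes, and Loxl3 shows the widest gap, from 121-248 to 9-25.

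The calls were less stable than the directions. Same-numbered libraries were read as pairs, with deviations from their group means that correlated at 0.245, 0.125 and 0.144. These values do not single out pairs 2 and 3, since Col6a1+ replicate 2 and Col6a1- replicate 3 correlated at 0.15. With the replicate number as a block over all genes, 0 of the 10 enzymes and 0 of all genes were called by limma, the smallest adjusted p of any gene being 0.0612, while 7 of the 10 kept an unadjusted p under 0.05. With the same block over genes averaging at least 10, 6 of the 10 were called, Plod1 in addition to the 5 above. Leaving out Col6a1+ replicate 1, 2 or 3 left 3, 2 or 1 of the 10 genes called, and leaving out Col6a1- replicate 1, 2 or 3 left 0, 1 or 0, with 7 or 8 of the 10 at an unadjusted p under 0.05 each time. The number of all genes called higher fell as well, from 703 to 453, 292 and 179 and to 11, 180 and 102 in the same fits. Over genes averaging at least 10, the same 6 fits called 7, 2, 2, 3, 4 and 2 of the 10. The lowest Col6a1- value came from replicate 3 in 8 of the 10 genes, from replicate 1 for P4ha1 and from replicate 2 for P4ha2. That library also had the lowest pan-fibroblast sum of the 6, 8929 against 15653 and 16277 in the other Col6a1- libraries.

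Loxl2 was the most abundant crosslinking enzyme transcript in all 6 libraries. It encodes a secreted LOX-like enzyme with scavenger receptor domains that acts on type IV collagen of basement membranes. The gene (ENSMUSG00000034205) lies on the plus strand of mm10 at chr14:69609068-69695834. Its normalized counts were 1548, 1276 and 1355 in Col6a1+ replicates 1 to 3 and 455, 383 and 235 in Col6a1- replicates 1 to 3. The lowest Col6a1+ library was thus far above the highest Col6a1- library. The means, 1393 ± 140 and 358 ± 112, differed 3.89-fold, and the log2 fold change was 2.01 ± 0.31 (SE; 95% interval 1.32 to 2.69; adjusted p = 0.00582, limma). The block over all genes gave an adjusted p of 0.0616, and over genes averaging at least 10 it gave 0.00331. Leaving out any 1 Col6a1+ library kept the adjusted p between 0.0398 and 0.0478, whereas without Col6a1- replicate 1, 2 or 3 it was 0.0717, 0.0642 or 0.0623. Over genes averaging at least 10 it stayed under 0.05 without any 1 library, between 0.00589 and 0.0254. The log2 fold change moved between 1.73 and 2.21 in these fits.

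Loxl3 showed the largest fold change of the 10 genes. This LOX-like enzyme, also with scavenger receptor domains, is needed for craniofacial and spinal development in mice. The gene (ENSMUSG00000000693, chr6:83034173-83052562, plus strand) had 248, 121 and 125 normalized counts in Col6a1+ replicates 1 to 3 and 15, 25 and 9 in Col6a1- replicates 1 to 3. All Col6a1- libraries were at a low level, and Col6a1+ replicate 1 stood well above the other 2 Col6a1+ libraries. The means of 165 ± 72.2 and 16.3 ± 8.08 differed 10.1-fold, with a log2 fold change of 3.28 ± 0.54 (95% interval 2.09 to 4.48; adjusted p = 0.00765, limma), and only 1% of the genes tested had a larger log2 fold change. With the block the adjusted p was 0.0742 over all genes and 0.00687 over genes averaging at least 10. It was 0.0567 without Col6a1+ replicate 3, 0.101 without Col6a1- replicate 1 and 0.0872 without Col6a1- replicate 3, and it stayed under 0.05 without any of the other libraries. Over genes averaging at least 10 it lay between 0.00591 and 0.0327 in all 6 of these fits. The annotated 3′ end of Loxl3 overlaps that of Htra2, on the other strand, by 1297 bases. Htra2 had 20, 35 and 67 normalized counts in Col6a1+ and 27, 43 and 26 in Col6a1- libraries, which overlap. It was below Loxl3 in every Col6a1+ library and above it in every Col6a1- library. Any part of Htra2 reads in the Loxl3 counts was not tested. Whether reads were counted by strand is not given in the sources used here.

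Lox, the founding member, encodes a secreted oxidase of fibrillar collagen and elastin. On mm10 it lies at chr18:52516069-52529867, minus strand (ENSMUSG00000024529). Its normalized counts were 176, 307 and 218 in Col6a1+ libraries and 135, 219 and 47 in Col6a1- libraries. The groups overlapped, since Col6a1- replicate 2 was above Col6a1+ replicates 1 and 3. The difference between 234 ± 66.9 and 134 ± 86.0 did not pass the test (log2 fold change 1.02 ± 0.53, 95% interval -0.14 to 2.18, adjusted p = 0.385, limma). Without Col6a1- replicate 3 the log2 fold change was 0.40.

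Loxl1 encodes an oxidase known for its part in elastic fibre maintenance (ENSMUSG00000032334, chr9:58287738-58313186, minus strand). It had 56, 294 and 233 normalized counts in Col6a1+ libraries and 197, 186 and 58 in Col6a1- libraries. The spread within each group, from 56 to 294 and from 58 to 197, was larger than the difference between the means of 194 ± 124 and 147 ± 77.3. The log2 fold change was 0.28 ± 0.66 (95% interval -1.17 to 1.74; adjusted p = 0.827, limma). Its sign depended on single libraries, with -0.17 without Col6a1+ replicate 2, -9.0e-04 without Col6a1+ replicate 3 and -0.29 without Col6a1- replicate 3, and 1.02 without Col6a1+ replicate 1.

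Loxl4, another LOX-like enzyme with scavenger receptor domains, was the least abundant of the 10 genes (ENSMUSG00000025185, chr19:42593982-42612813, minus strand). Its normalized counts of 14, 19 and 23 in Col6a1+ libraries lay above the 6, 6 and 5 in Col6a1- libraries. The means of 18.7 ± 4.51 and 5.67 ± 0.577 differed 3.29-fold. At this depth the difference did not pass the test across all genes (log2 fold change 1.54 ± 0.81, 95% interval -0.25 to 3.32, adjusted p = 0.398, limma).

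Of the lysyl hydroxylases, only Plod2 passed the test over all genes, although its log2 fold change was close to that of Plod1 (1.61 and 1.62). Plod2 encodes the enzyme that hydroxylates the telopeptide lysines of fibrillar collagen, from which the more stable hydroxylysine aldehyde crosslinks form, and its loss causes a form of Bruck syndrome. The gene (ENSMUSG00000032374, chr9:92542223-92608428, plus strand) had 228, 134 and 124 normalized counts in Col6a1+ and 56, 53 and 43 in Col6a1- libraries. The Col6a1- libraries were close to each other, and Col6a1+ replicate 1 was the highest of all. The means of 162 ± 57.4 and 50.7 ± 6.81 differed 3.20-fold (log2 fold change 1.61 ± 0.40, adjusted p = 0.0491, limma). This call was at the edge of the threshold, with an adjusted p of 0.107 under the block, 0.0261 under the block over genes averaging at least 10, 0.0539 under library size scaling, 0.0658 with a pseudocount of 0.1, 0.0599 with limma-voom and 0.0654 to 0.182 over all genes without any 1 library. Leaving out a library gave 0.0320 to 0.114 over genes averaging at least 10, under 0.05 in 1 of 6 fits.

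Plod1, which encodes the lysyl hydroxylase of the helical part of collagen and is mutated in the kyphoscoliotic form of Ehlers-Danlos syndrome, lies at chr4:147909753-147936767 on the minus strand (ENSMUSG00000019055). It had 227, 325 and 185 normalized counts in Col6a1+ libraries and 59, 137 and 57 in Col6a1- libraries. The groups did not overlap, and replicate 2 was the highest in both. The means of 246 ± 71.8 and 84.3 ± 45.6 differed 2.91-fold, with a log2 fold change of 1.62 ± 0.43 that did not pass the test over all genes (adjusted p = 0.0650, limma). It passed over genes averaging at least 10, both without the block (adjusted p = 0.0487) and with it (0.0160).

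Plod3 encodes an enzyme with both lysyl hydroxylase and glycosyltransferase activity (ENSMUSG00000004846, chr5:136987019-136996648, plus strand). Its normalized counts were 201, 258 and 466 in Col6a1+ and 118, 140 and 91 in Col6a1- libraries, and the groups did not overlap. Col6a1+ replicate 3 had the highest Plod3 and the lowest Plod1 and Plod2 of its group. The means of 308 ± 139 and 116 ± 24.5 differed 2.65-fold (log2 fold change 1.33 ± 0.39, adjusted p = 0.0890, limma), and without Col6a1+ replicate 3 the log2 fold change was 0.98. Its 5′ end overlaps Znhit1 on the other strand by 1003 bases, away from the 3′ end that the method reads.

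Both alpha subunits of collagen prolyl 4-hydroxylase rose in Col6a1+ CAFs. P4ha1 encodes the main catalytic subunit in most tissues and P4ha2 the subunit of the second isoenzyme, which is prominent in chondrocytes and in fibrotic matrix. P4ha1 (ENSMUSG00000019916, chr10:59323296-59373304, plus strand) had 146, 192 and 152 normalized counts in Col6a1+ and 23, 55 and 47 in Col6a1- libraries. The 2 ranges were far apart, and Col6a1+ libraries varied little. The means of 163 ± 25.0 and 41.7 ± 16.7 differed 3.92-fold (log2 fold change 2.02 ± 0.44, 95% interval 1.05 to 3.00, adjusted p = 0.0283, limma). Under the block the adjusted p was 0.0905 over all genes and 0.0153 over genes averaging at least 10, and without any 1 library it was between 0.0630 and 0.136 over all genes. Among genes averaging at least 10, the same fits gave 0.0138 to 0.0732, under 0.05 in 2 of 6.

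P4ha2 (ENSMUSG00000018906, chr11:54100095-54131665, plus strand) had 109, 160 and 245 normalized counts in Col6a1+ and 59, 28 and 44 in Col6a1- libraries. Again no library of one group reached the other, and the order of the replicates differed from that of P4ha1. The means of 171 ± 68.7 and 43.7 ± 15.5 also differed 3.92-fold (log2 fold change 1.93 ± 0.46, adjusted p = 0.0401, limma). The adjusted p was 0.141 under the block, 0.0278 under the block over genes averaging at least 10, 0.0480 without Col6a1+ replicate 1 and 0.108 to 0.194 over all genes without any other library. Leaving out each library among genes averaging at least 10 gave 0.00913 to 0.116, under 0.05 in 2 of 6 fits.

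P4ha1 is a textbook target of the hypoxia-inducible factors. The promoters of the members were searched for the core of the hypoxia response element, a search chosen after the data were seen. RefSeq promoters on GRCm38.p6 were given for 5 of the 10 genes (Plod1, Plod3, P4ha1, P4ha2 and Loxl4). The search used ACGTG or GCGTG on either strand in the 250 bases before the annotated start, a match being a description of letters and not a binding site. The P4ha1 stretch, chr10:59323046-59323295 on the plus strand, is shown with the 3 matches in capitals (CACGT being ACGTG on the other strand).
P4ha1: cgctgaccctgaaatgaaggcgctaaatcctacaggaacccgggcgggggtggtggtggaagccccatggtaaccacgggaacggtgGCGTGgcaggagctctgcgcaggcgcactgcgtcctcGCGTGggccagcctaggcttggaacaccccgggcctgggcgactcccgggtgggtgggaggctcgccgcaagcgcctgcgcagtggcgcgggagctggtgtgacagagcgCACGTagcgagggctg
P4ha2 also held 3 matches, Plod3 held 4, and Plod1 and Loxl4 held 1 each. At least 1 match was thus found in 5 of the 5 promoters and in 38.6% of all 32851 promoters of that length. All 5 are rich in G and C, at 55.6% to 76.0% against a median of 52.4% over all promoters, which is the base composition of the searched motif as well. The promoters compared with were not matched for base composition, and any part of hypoxia in the levels was not tested. The TATA box TATAAA was found in Plod1 and in 12.4% of all promoters, and the GC box GGGCGG in Plod1, P4ha1, P4ha2 and Loxl4 and in 32.7% of all promoters, in P4ha1 apart from the capitals.

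**Figure D2:**
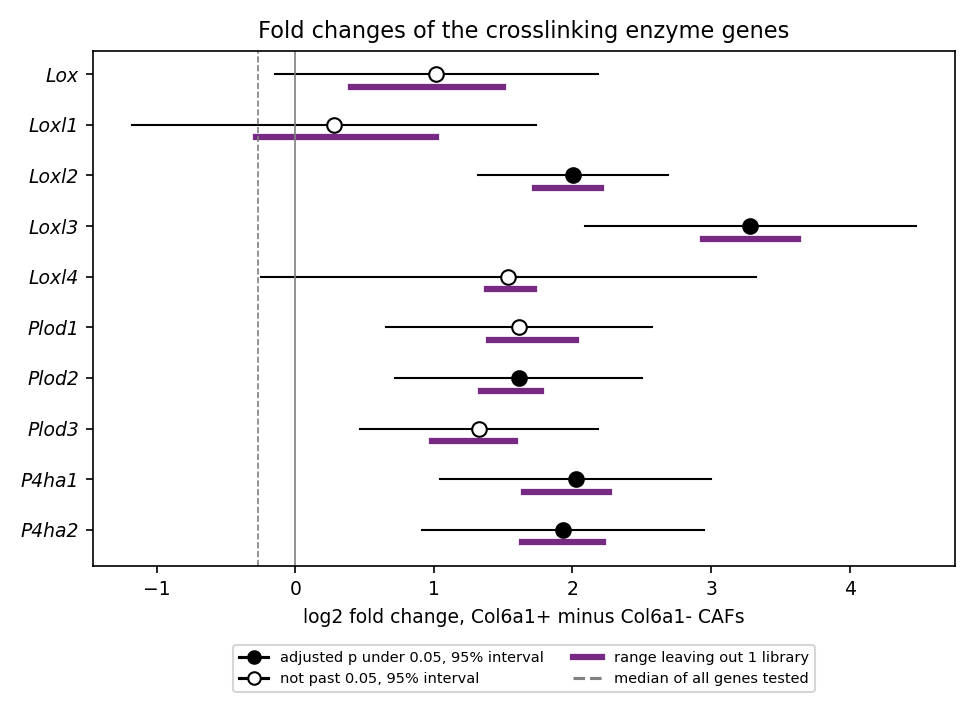
The log2 fold change (Col6a1+ minus Col6a1- CAFs) of each crosslinking enzyme gene with its 95% interval, filled where the adjusted p of limma was under 0.05. The purple bar is the range when 1 library at a time is left out, which crosses 0 for Loxl1 only, and the dashed line is the median of all genes tested, -0.27.

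The composition of each enzyme family was then compared, as the share of the family's normalized counts in each library. A 3′ method counts the end of each transcript, so these shares are of transcripts and were not divided by gene length. They are a description, with no test. Loxl2 made up 75.8%, 63.3% and 69.3% of the lysyl oxidase counts in Col6a1+ libraries and 56.3%, 46.8% and 66.4% in Col6a1- libraries, and these ranges overlap. Loxl3 held 12.1%, 6.0% and 6.4% against 1.86%, 3.05% and 2.54%, without overlap. In the opposite direction, Loxl1 held 2.74%, 14.6% and 11.9% against 24.4%, 22.7% and 16.4%, again without overlap. Lox held 8.62% to 15.2% against 13.3% to 26.7%, and Loxl4 no more than 1.41% in any library. The lysyl oxidase counts of Col6a1- CAFs thus held a larger share of Loxl1 and a smaller share of Loxl3 than those of Col6a1+ CAFs. Shares within a family depend on each other. The Loxl1 counts themselves overlapped between the groups, with means of 194 in Col6a1+ and 147 in Col6a1- CAFs.

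Within the hydroxylase families the shares overlapped for every gene. Plod3 ranged from 30.6% to 60.1% of the lysyl hydroxylase counts in Col6a1+ and from 42.4% to 50.6% in Col6a1- libraries, and P4ha1 from 38.3% to 57.3% and from 28% to 66.3% of the P4ha1 and P4ha2 counts. The log2 ratio of a pair of enzymes within a library, which does not depend on the scaling between libraries, was tested for 3 pairs by an exact two-sided permutation test. With 3 libraries against 3 its smallest possible p is 0.1. The log2 ratio of Loxl2 to Lox was 2.60 ± 0.54 in Col6a1+ and 1.62 ± 0.76 in Col6a1- CAFs (n = 3 each, exact permutation p = 0.2, adjusted p = 0.6). That of Plod2 to Plod1 was -0.61 ± 0.64 and -0.61 ± 0.67 (exact permutation p = 1), and that of P4ha2 to P4ha1 was 0.0018 ± 0.60 and 0.093 ± 1.2 (exact permutation p = 0.9, adjusted p = 1). Between same-numbered libraries, the log2 ratio of Loxl2 to Lox was higher in Col6a1+ CAFs by 1.38, 1.25 and 0.33. An exact sign-flip permutation test of these 3 differences, added after the data were seen, cannot go below p = 0.25, which it reached for Loxl2 to Lox (adjusted p = 0.75), and it gave p = 1 for the other two ratios. With 3 libraries a group neither test could pass 0.05.

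Since the enzymes act on collagen, their counts were also set against those of the fibrillar collagens Col1a1, Col1a2 and Col3a1, a ratio chosen after the data were seen and given with no test. The collagen sum was 30441, 33334 and 35007 normalized counts in Col6a1+ libraries and 9298, 9655 and 4699 in Col6a1- libraries. The 5 lysyl oxidase genes together had 2042, 2017 and 1954 against 808, 819 and 354. The lysyl oxidase sum was therefore higher in each Col6a1+ library, but by less than the collagens. Per 1000 collagen counts there were 67.1, 60.5 and 55.8 lysyl oxidase counts in Col6a1+ CAFs and 86.9, 84.8 and 75.3 in Col6a1- CAFs, with Col6a1- above Col6a1+ in every library.

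The lysyl hydroxylase genes summed to 656, 717 and 775 normalized counts against 233, 330 and 191. Per 1000 collagen counts they stood at 21.5, 21.5 and 22.1 in Col6a1+ and at 25.1, 34.2 and 40.6 in Col6a1- libraries. The Col6a1+ libraries were nearly equal in this ratio, and all Col6a1- libraries lay above them. The P4ha1 and P4ha2 counts summed to 255, 352 and 397 against 82, 83 and 91, and per 1000 collagen counts to 8.38, 10.6 and 11.3 against 8.82, 8.60 and 19.4, which overlap. Without Col6a1- replicate 3, the library with the lowest collagen sum, the log2 difference per collagen count was -0.49 for the lysyl oxidases, -0.43 for the lysyl hydroxylases and 0.20 for the prolyl 4-hydroxylase subunits, against -0.43, -0.59 and -0.18 with it.

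Of the 10 genes only Loxl3 was higher per collagen count in every Col6a1+ library, with 8.15, 3.63 and 3.57 per 1000 against 1.61, 2.59 and 1.92, a 2.36-fold difference of the geometric means. Lox, with 5.78, 9.21 and 6.23 against 14.5, 22.7 and 10, and Loxl1, with 1.84, 8.82 and 6.66 against 21.2, 19.3 and 12.3, were lower in every Col6a1+ library, and the other 7 genes overlapped. Loxl2, at 50.9, 38.3 and 38.7 against 48.9, 39.7 and 50, was among these, so its counts and those of the fibrillar collagens differed by a similar factor between the sorts.

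The direction of the family ratios depended on the gene in the denominator. Per count of Vim (vimentin, an intermediate filament of mesenchymal cells) the log2 difference was 0.80 for the lysyl oxidases, 0.64 for the lysyl hydroxylases and 1.05 for the prolyl 4-hydroxylase subunits, and per count of Dcn (decorin, a proteoglycan of fibroblasts) it was 0.79, 0.63 and 1.04, all positive for Col6a1+ minus Col6a1- CAFs. The groups overlapped for both lysyl families per Vim and for the prolyl 4-hydroxylase subunits per Dcn, and were separate for the other 3 of these ratios. Without Col6a1- replicate 3 the lysyl oxidase difference per Vim was 0.35, and without Col6a1- replicate 2 or 3 the lysyl hydroxylase difference per Vim was 1.00 or 0.41. Per Dcn, the lysyl hydroxylase difference was 0.37 without Col6a1- replicate 1. The mean log2 ratio was higher in Col6a1+ CAFs for 9 of the 10 genes per Vim and per Dcn, Loxl1 being the exception, and 5 of the 10 per Vim and 8 of the 10 per Dcn overlapped between the groups. How many of all genes would overlap per collagen, Vim or Dcn count was not determined. For Lox per Vim the sign depended on the scale of averaging, since the mean of the ratios themselves was lower in Col6a1+ CAFs (71.5 against 81.8 per 1000). Loxl3 was 5.55-fold higher per Vim and 5.50-fold higher per Dcn, without overlap in either. In the libraries, Vim ranged from 3067 to 3508 in Col6a1+ and from 1437 to 1984 in Col6a1- CAFs.

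**Figure D3:**
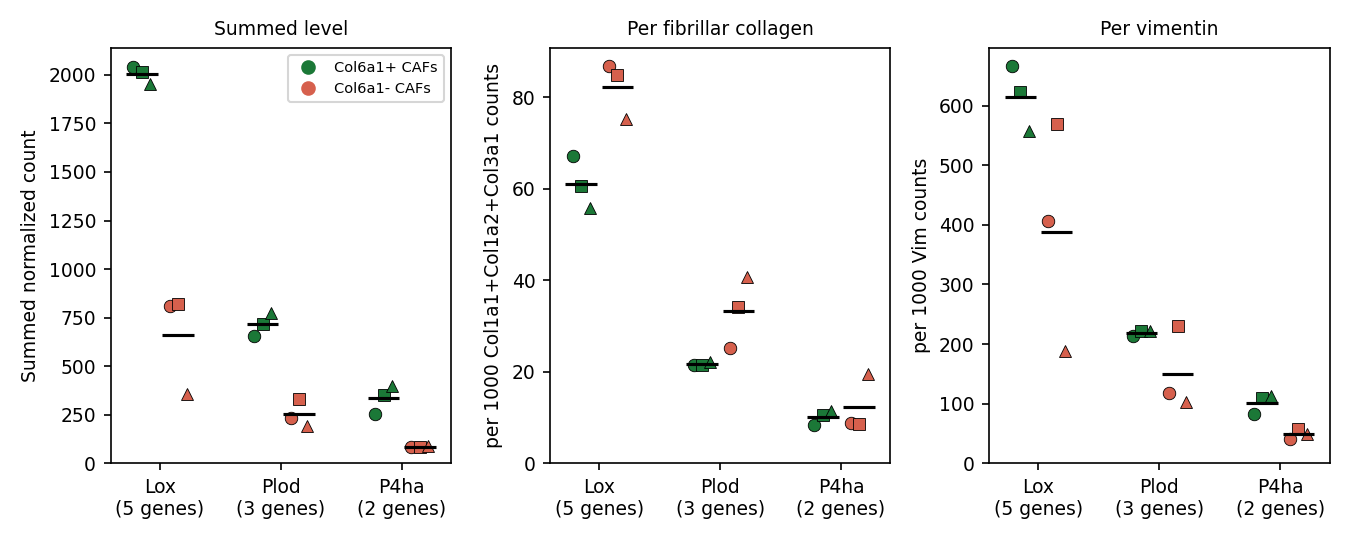
Summed normalized counts of the lysyl oxidases (5 genes), lysyl hydroxylases (3 genes) and prolyl 4-hydroxylase subunits (2 genes) in each library, as such, per 1000 counts of Col1a1, Col1a2 and Col3a1, and per 1000 counts of Vim; symbols are replicates and bars are means. All 3 sums are higher in every Col6a1+ library, the lysyl oxidases and lysyl hydroxylases are lower per collagen count in every Col6a1+ library, and per Vim count all 3 means are higher in Col6a1+ CAFs.

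The other genes of collagen maturation were read from 5 lists with 54 genes, of which 52 were tested, 21 rose and 1 fell in Col6a1+ CAFs at an adjusted p under 0.05 in limma. By the same test, 2.66% of all genes tested were called higher and 4.62% in either direction. Under the block over all genes 0 of these 22 stayed called, and over genes averaging at least 10 all 21 that were tested did. That last fit called 981 genes higher and 871 lower among the 13515 it tested. Without Col6a1+ replicate 1, 2 or 3, 10, 8 or 7 of the 22 stayed called, and without Col6a1- replicate 1, 2 or 3, 0, 7 or 2, with 0 reversed in direction. Over genes averaging at least 10, the same fits kept 21, 15 and 13 and then 15, 17 and 13 of 21. Of the 11 genes of hydroxylation and glycosylation beyond the members, 4 rose (median of the list 0.35). P3h1, P3h2 and P3h3, which encode the prolyl 3-hydroxylases, rose with log2 fold changes of 1.97, 5.36 and 1.57 (adjusted p = 0.0169, 0.0103 and 0.0416), and Crtap, the partner of P3h1, with 2.06 (adjusted p = 0.0199). P3h2 had 98, 213 and 246 normalized counts in Col6a1+ and 4, 14 and 0 in Col6a1- libraries. P4ha3, the third alpha subunit gene, had 60, 62 and 110 against 27, 9 and 1 and did not pass (log2 fold change 3.19, adjusted p = 0.0830). Colgalt1, a collagen galactosyltransferase, and Jmjd6 had log2 fold changes of 0.35 and -0.24 and did not pass.

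P4hb encodes the beta subunit that joins the P4ha subunits and is also the abundant protein disulfide isomerase of many cell types, and it was chosen after its values were seen. It had 1157, 1237 and 883 normalized counts in Col6a1+ and 1324, 1153 and 838 in Col6a1- libraries, which overlap (1092 ± 186 and 1105 ± 247, log2 fold change -0.01 ± 0.29, 95% interval -0.64 to 0.63, limma). P4hb stood above P4ha1 and P4ha2 in every library, and whether its change differed from theirs was not tested.

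Of the 11 genes tested for folding and export, 5 rose (median 1.6). Serpinh1, the collagen chaperone HSP47, rose by a log2 fold change of 1.6 (adjusted p = 0.0258), Fkbp10, a prolyl isomerase that assists the lysyl hydroxylase of telopeptides, by 2.22 (adjusted p = 0.0118), its relatives Fkbp7 by 2.51 and Fkbp9 by 2.71, and the collagen-binding glycoprotein Sparc by 2.76 (adjusted p = 0.00446). Sec24d, Fkbp14 and Creb3l1 had log2 fold changes of 1.15, 2.05 and 0.93 and did not pass, although Fkbp14 did under the block over genes averaging at least 10 (adjusted p = 0.0484). For the removal of propeptides, 2 of the 7 genes tested rose (median 1.51), namely Bmp1, which cleaves the C-propeptide and also activates the LOX precursor, with 1.51 (adjusted p = 0.0274), and the N-proteinase Adamts2 with 4.13 (adjusted p = 0.00216). Adamts14 and the enhancer Pcolce, at 3.21 and 1.57, did not pass over all genes (adjusted p = 0.0714 and 0.102), while Adamts14 passed over genes averaging at least 10 (0.0447) and with limma-voom (0.0486). Tll1, Pcolce2 and Adamts3 did not pass, each with a mean of at most 5 in the 6 libraries.

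Among 13 genes of other crosslinking enzymes and of LOX partners, 3 rose (median 0.96). They were Pxdn, the peroxidase of collagen IV crosslinks, with 1.95 (adjusted p = 0.0389), and Fn1 and Postn, the matrix proteins fibronectin and periostin, with 1.31 and 3.35 (adjusted p = 0.0409 and 0.00613). Slc31a1, the copper importer, Tgm3, a transglutaminase of epithelia, and Ltbp4 had log2 fold changes of -1.13, -2.34 and 1.10 and did not pass (adjusted p = 0.0660, 0.164 and 0.206). Slc31a1 passed over genes averaging at least 10, with an adjusted p of 0.0400 without the block and 0.0371 with it, and at 0.0376 over genes with at least 10 counts in every library. Tgm3 passed without Col6a1+ replicate 1 (adjusted p = 0.0326). Of the 10 genes of fibrillar substrates, 7 rose (median 2.25). Col1a1, Col1a2, Col3a1, Col5a1, Col5a2 and Col5a3 rose by log2 fold changes of 2.21, 2.50, 1.81, 2.28, 2.71 and 3.89, and Eln, elastin, by 2.80. Col1a1, Col1a2 and Col3a1 also stand in the pan-fibroblast list. Col2a1, the collagen of cartilage, was at 0 in all Col6a1+ libraries and at 13.7 ± 4.51 in Col6a1- libraries, at least 4.56-fold lower against a floor of 3 counts (adjusted p = 0.0342, limma).

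**Figure D4:**
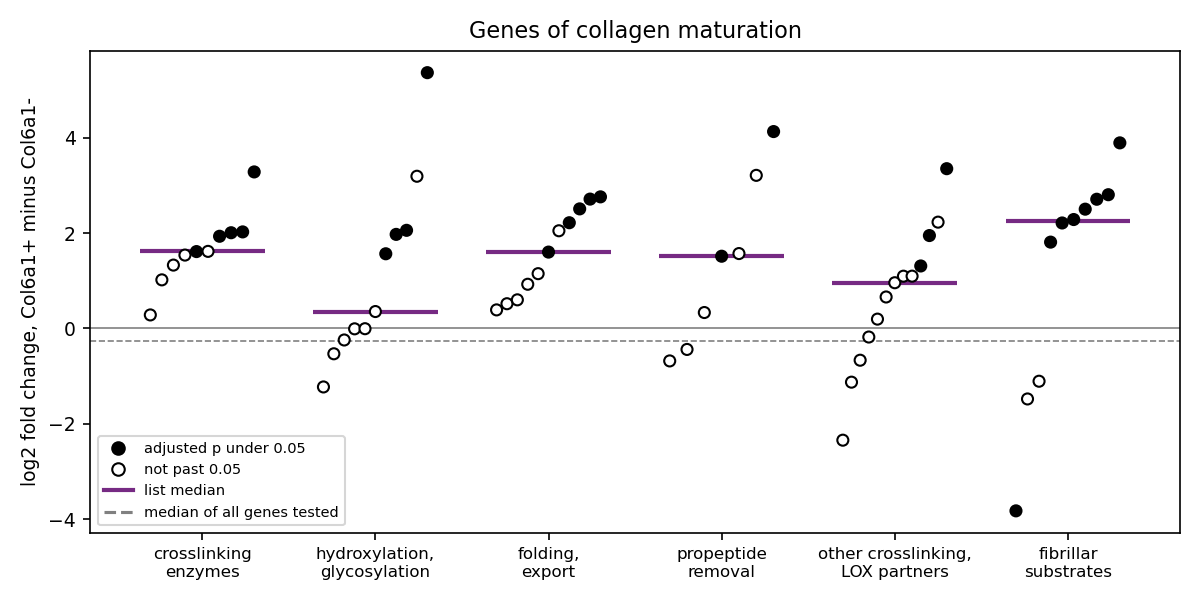
The log2 fold changes (Col6a1+ minus Col6a1- CAFs) of the 10 crosslinking enzyme genes and of the 5 other lists of collagen maturation, filled where the adjusted p of limma was under 0.05, with the median of each list as a bar and that of all genes tested as a dashed line. The median of the crosslinking enzymes, 1.61, lies beside those of folding and export (1.6) and of propeptide removal (1.51), above that of hydroxylation and glycosylation (0.35) and below that of the fibrillar substrates (2.25).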

How the data were processed

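The authors made 3′ mRNA (QuantSeq) libraries, sequenced them on an Ion Proton, aligned them to mm10 with TopHat2 and then Bowtie2, counted them per gene with GenomicRanges and normalized them with DESeq through metaseqR. The authors' deposited table gives the log2 of the normalized count plus 1 for 49548 genes. These values are whole normalized counts after back-transformation, so they were rounded and are not raw counts. The table also holds the authors' own p-value, false discovery rate and log2 fold change, which were not used, and 6 further columns of per-sample values, which were not used either. A single model was fitted in limma 3.58.1 (R 4.3.3, trended eBayes, two-sided, with 4 residual and 6.48 prior degrees of freedom) to the 26402 genes with a sum of at least 1 normalized count over 6 libraries. P-values were adjusted over all of them by Benjamini-Hochberg, and called at an adjusted p under 0.05. Fold changes are on the log2 (normalized count + 1) scale and understate those of low genes. The script was tested on simulated data.

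Replicate numbers were checked as pairs over 13515 genes averaging at least 10 normalized counts. Deviations from the group means correlated at 0.245, 0.125 and 0.144 between same-numbered libraries and at -0.245 to 0.150 between others. Blocked values are given where a call of the 10 genes or of Col6a1 changed, and mostly as counts for the other genes. Numbers of reads were estimated from the regular step between low values. Alternatives were library size scaling, other filters, a pseudocount of 0.1, limma-voom, the replicate block and leaving out each library. Fits leaving out a library over genes averaging at least 10, the paired test of enzyme ratios, the ratios per collagen, Vim and Dcn count, and the promoter search were chosen after seeing the data. The 10 genes and all gene lists were chosen with earlier results of these data known. Named genes are the 10, of each pathway list those called and, of the rest, the 3 with the smallest p at a mean of at least 10, and of each marker list the 2 with the highest mean. Tie1 and Cnn1 were named in addition, after their values were seen. A further marker list is not reported here. Ctage5 had no row under that symbol and Tll2 was at 0 in every library. Coordinates are those of the authors' table. Promoters are RefSeq's. Python 3.11.15, pandas 2.3.3, SciPy 1.17.1 and Matplotlib 3.10.9 were used.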

Additional observations from a re-analysis of the deposited data

How the results depend on the processing

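The 10 enzymes kept a positive log2 fold change under every alternative with all 6 libraries. The count of 5 called by limma was 4 with library size scaling, 5 of the 8 tested with at least 10 counts in every library, 6 with a mean of at least 10, 4 with limma-voom and 7 by the unadjusted criterion. It was 3 with a pseudocount of 0.1 and 0 without any filter, where 21 genes were called higher and 7 lower, and 8 of the 10 had an unadjusted p under 0.05. With the replicate block it was 0 over all genes (7 at an unadjusted p under 0.05) and 6 over genes averaging at least 10, where 981 genes were called higher and 871 lower. Leaving out 1 library gave 0 to 3 over all genes, and 2 to 7 over genes averaging at least 10, Col6a1+ replicates 2 and 3 and Col6a1- replicate 3 giving 2 and Col6a1- replicate 1 giving 3. These fits have fewer samples. Loxl1 turned negative, between -0.29 and -9.0e-04, without Col6a1+ replicate 2 (-0.17) or 3 or Col6a1- replicate 3, with or without the filter on the mean, and was 1.02 without Col6a1+ replicate 1. The log2 ratio of Plod2 to Plod1, -0.0043, was 4.56e-04 with a pseudocount of 0.1 and -0.38 to 0.33 without 1 library, and that of P4ha2 to P4ha1, -0.09, was -0.61 to 0.52. The replicate block leaves the 3 ratio differences as they are by construction, with exact permutation p-values of 0.25, 1 and 1. Per Vim in place of collagen the family differences turned to 0.80, 0.64 and 1.05, and per Dcn to 0.79, 0.63 and 1.04. Without 1 library these were 0.35 to 1.15, 0.41 to 1.00 and 0.93 to 1.19 per Vim, and 0.74 to 0.87, 0.37 to 0.80 and 0.78 to 1.43 per Dcn. The causes were not tested.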
